A study of Mus musculus with 16 samples.

Results

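The itch and Mrgpr receptors are 10 genes, Mrgprd, Mrgpra3, Mrgprb4, Mrgprb5, Mrgprx1, Il31ra, Osmr, Hrh1, Cysltr2 and Lpar3, chosen by name as receptors of itch-sensing neurons, out of 25719 genes counted in each library. All 10 passed the filter on low counts, which left 15109 genes. All but Lpar3 and Il31ra needed their counts at the later age to pass. Polyadenylated RNA was sequenced from whole trigeminal ganglia of Nogo-A knockout (KO) mice and wild-type (WT) mice, taken on embryonic day 14 (E14) or postnatal day 25 (P25). There were 16 libraries in 4 groups, which were E14 KO, E14 WT, P25 KO and P25 WT, with 4 libraries in each and 1 ganglion per library. No treatment was given, and the labels name neither a strain nor the exons deleted in the KO allele, so the allele cannot be described further. Nogo-A, the longest protein of the Rtn4 gene, is best known for holding back the growth of nerve fibres. The library names of 2 pairs of E14 ganglia, KO replicates 1 and 3 and WT replicates 2 and 4, differ in the letter R or L beside a shared number, and each pair may come from 1 animal. The design text of the series states 4 animals per group, and which of these holds is not settled here.

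Sensory neurons of the face have their cell bodies in the trigeminal ganglion. Itch is carried by small unmyelinated neurons of several classes, which are told apart by the receptors they use: Mrgprd in one, Mrgpra3 and Mrgprx1 in another, and Il31ra, Osmr and Cysltr2 in a further class that also makes the peptides Nppb and Sst. Many of these receptors are known to appear late in development, downstream of the transcription factor Runx1, after the neurons have already formed. A whole ganglion was sequenced, so a larger number of cells of one class and more RNA per cell cannot be told apart in any value given here.

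Library totals ran from 15532373 to 29562379 counts, and all P25 libraries were deeper than all E14 libraries. Levels are given as CPM, the count of a gene over the scaled library total in units of 1000000 counts, and their spread as the standard deviation (SD) of the 4 libraries. Rtn4 ranged from 236 to 405 CPM in E14 KO and from 144 to 521 CPM in E14 WT ganglia, and from 345 to 384 CPM in P25 KO and from 406 to 542 CPM in P25 WT ganglia. Its log2 fold change in KO over WT was -0.27 at E14 (adjusted p = 0.943) and -0.41 at P25 (adjusted p = 1). The value counts all Rtn4 transcripts together, so it does not by itself check a deletion that spares the shorter ones. E14 WT replicate 2 stood apart from its group: the chi-square of its counts against the other 3 E14 WT libraries was 128 to 188.3 per degree of freedom, against 20.38 to 50.15 among those 3. The trend of gene level with transcript GC content and length took up 54.9% of the variance of that library among the E14 libraries, 40.2% and 39.2% in E14 WT replicates 3 and 4, 36.3% in E14 KO replicate 2 and 4.41% to 13.7% in the remaining 4. Its part in the change with age was not tested, and without E14 WT replicate 2 all 10 receptors were still called higher at P25 in both genotypes.

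Of the 10 receptors, 5 lie on chromosome 7 of the GRCm38 assembly. Mrgpra3 (47588950 to 47601372), Mrgprx1 (48020971 to 48027597), Mrgprb5 (48167983 to 48169019) and Mrgprb4 (48198070 to 48199288) are on the minus strand within one cluster of 14 counted Mrgpr genes that spans 1458.1 kb. Mrgprd (145314835 to 145324086, plus strand) is distant from that cluster and starts 5.3 kb past the end of Mrgprf. Upstream sequences are printed for Mrgprd, the highest at P25, and for Mrgprx1 and Il31ra, which, like Lpar3, Osmr and Hrh1, had counts at E14. They are the 250 bases just before the RefSeq gene start in GRCm38.p6, written 5′ to 3′ on the strand of the gene, at chr7:145314585-145314834 (plus), chr7:48027598-48027847 (minus) and chr13:112580663-112580912 (minus). The window of Il31ra lies inside the gene as GENCODE places it, since RefSeq starts the gene further downstream, and it overlaps no annotated exon.
Mrgprd: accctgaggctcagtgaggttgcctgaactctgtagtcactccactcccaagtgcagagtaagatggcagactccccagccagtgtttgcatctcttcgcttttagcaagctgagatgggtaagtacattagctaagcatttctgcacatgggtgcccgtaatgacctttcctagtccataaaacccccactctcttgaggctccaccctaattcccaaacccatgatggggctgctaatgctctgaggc
Mrgprx1: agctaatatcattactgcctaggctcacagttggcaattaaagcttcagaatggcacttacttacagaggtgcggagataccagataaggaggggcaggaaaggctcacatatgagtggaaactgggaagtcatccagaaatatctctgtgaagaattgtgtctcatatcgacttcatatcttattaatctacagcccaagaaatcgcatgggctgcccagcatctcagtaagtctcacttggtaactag
Il31ra: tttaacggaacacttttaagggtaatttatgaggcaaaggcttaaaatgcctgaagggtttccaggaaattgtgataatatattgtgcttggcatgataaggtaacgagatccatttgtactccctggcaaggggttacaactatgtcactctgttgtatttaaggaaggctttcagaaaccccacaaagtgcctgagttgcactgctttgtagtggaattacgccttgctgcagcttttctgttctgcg
None of these 3 windows holds TGTGGT or TGCGGT, the letters that RUNX factors bind, on either strand. There were 12 windows for 9 of the 10 receptors, and 2 of the 12, both of Hrh1, held a match (TGCGGT). Of all 32851 RefSeq windows of this length, 18.59% held one or the other. A match or its absence in so short a window says nothing about binding.

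Mrgprb4 and Mrgprb5 are close copies, and the match extends into the sequence before both genes. The 140 bases shown for each lie at chr7:48199289-48199428 for Mrgprb4 and chr7:48169096-48169235 for Mrgprb5, both on the minus strand, from RefSeq in GRCm38.p6, with capitals at the 30 positions where the pair differ.
Mrgprb4: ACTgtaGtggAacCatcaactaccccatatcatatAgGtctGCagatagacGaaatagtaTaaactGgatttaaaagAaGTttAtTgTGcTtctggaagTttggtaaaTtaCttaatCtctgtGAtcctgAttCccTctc
Mrgprb5: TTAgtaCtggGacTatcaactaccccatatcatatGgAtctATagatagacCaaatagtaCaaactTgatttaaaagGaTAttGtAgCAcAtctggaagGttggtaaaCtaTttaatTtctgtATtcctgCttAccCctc
These stretches were 78.571% identical. Within their transcripts, 10.6% of the 31-base words of Mrgprb4 and 7.45% of those of Mrgprb5 also occur in another gene. For Mrgprx1 the share was 22.17% and for Mrgpra3 21.42%, while Mrgprd, Hrh1 and Cysltr2 shared none. Counts of Mrgprx1 and Mrgpra3 are therefore less certain than those of the other receptors, because the deposited counts assign shared reads by estimation.

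All 10 receptors were higher at P25 than at E14, in KO and in WT ganglia alike, and in each genotype every P25 library lay above every E14 library for all 10. In KO, 30.6% of all tested genes were called higher at P25 with edgeR's quasi-likelihood test (adjusted p under 0.05), and 30.5% did not overlap in that direction. In WT these shares were 29.7% and 26.1%. Called lower were 29.2% of tested genes in KO and 29.8% in WT. All but Lpar3 and Il31ra needed their P25 counts to pass the filter, so nothing is read from the count of 10.

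**Figure D1:**
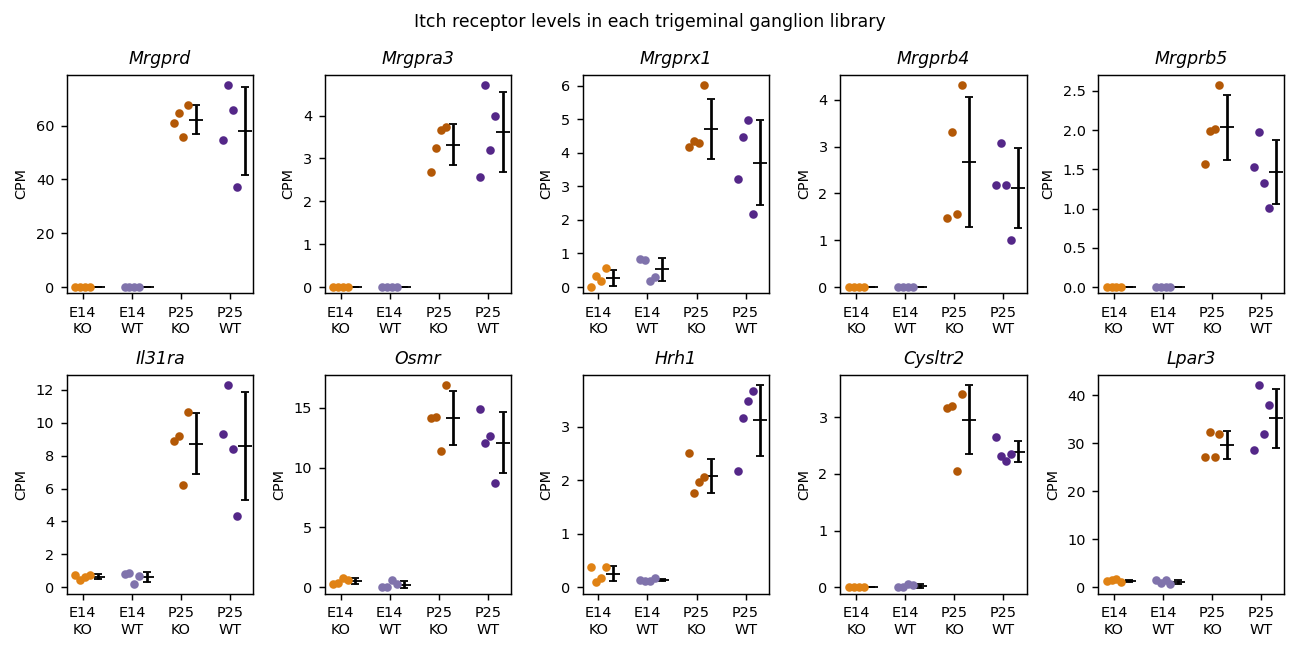
Level of each receptor in CPM (linear axis, one panel per gene) in the 4 libraries of E14 KO, E14 WT, P25 KO and P25 WT, as points, with the group mean and SD as a black bar. All 4 P25 libraries lie above all 4 E14 libraries in every panel, and the KO and WT points of P25 overlap in every panel.

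Mrgprd, the receptor of the nonpeptidergic neurons that respond to beta-alanine, had 60.9, 64.6, 55.6 and 67.8 CPM in P25 KO ganglia and 54.5, 75.2, 65.7 and 37.1 CPM in P25 WT ganglia. At E14 it had no count in any KO library and 1 count in WT replicate 3. The P25 KO libraries were close together, while the WT libraries spread on both sides of them. In KO, 5907 counts at P25 stood against 0 at E14, a level at least 1570-fold higher when 3 counts over the E14 group are taken as the floor (adjusted p = 1.25e-12 from edgeR's quasi-likelihood test). In WT, 5929 counts stood against 1, a ratio of 4555 with an exact 95% counting interval of 817 to 180000 (adjusted p = 1.36e-12).

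Mrgpra3, the chloroquine receptor, had 2.68, 3.23, 3.65 and 3.73 CPM in P25 KO ganglia and 2.58, 4.72, 3.19 and 3.98 CPM in P25 WT ganglia, with no count in the 8 E14 libraries. Its level was at least 83.4-fold higher at P25 in KO (adjusted p = 4.84e-08) and at least 94.3-fold higher in WT (adjusted p = 3.47e-08). The KO and WT values lay in the same range.

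Mrgprb4, which marks neurons of hairy skin that respond to stroking, had 1.48, 3.32, 1.55 and 4.33 CPM in P25 KO ganglia and 2.17, 3.08, 2.19 and 1.00 CPM in P25 WT ganglia. Mrgprb5, the neighbouring copy, had 1.56, 1.98, 2.01 and 2.58 CPM in P25 KO and 1.53, 1.98, 1.33 and 1.00 CPM in P25 WT ganglia. Neither had a count at E14. KO replicate 4 was the highest library of its group and WT replicate 4 the lowest for both copies. The bounds on the rise were 68.0-fold in KO and 54.8-fold in WT for Mrgprb4 (adjusted p = 2.83e-06 and 4.53e-06), and 51.3-fold in KO and 37.9-fold in WT for Mrgprb5 (adjusted p = 5.91e-07 and 1.29e-06).

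Mrgprx1, whose older mouse name is Mrgprc11, responds to the peptide BAM8-22. It had counts in most E14 libraries, whereas the other 4 Mrgpr receptors each had at most 1 count at E14. It had 4.16, 4.35, 4.29 and 6.03 CPM in P25 KO ganglia, against 0, 0.33, 0.17 and 0.57 CPM in E14 KO ganglia. In WT ganglia it had 3.22, 4.47, 4.99 and 2.16 CPM at P25, against 0.83, 0.79, 0.17 and 0.31 CPM at E14. The E14 values rest on 22 counts in KO and 41 counts in WT, found in 7 of the 8 libraries. As 22.17% of the 31-base words of Mrgprx1 occur in another gene, some of these counts may be shared reads assigned by estimation. Its log2 fold change at P25 over E14 was 4.03 ± 0.54 (SE; adjusted p = 2.31e-06) in KO and 2.81 ± 0.49 (adjusted p = 6.24e-05) in WT. The KO value was 4.71 without E14 KO replicate 4.

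Both chains of the receptor for interleukin 31 rose. Il31ra (GRCm38 chromosome 13, 112519898 to 112594360, minus strand), the chain specific to that cytokine, had 8.89, 9.18, 6.21 and 10.7 CPM in P25 KO, against 0.76, 0.42, 0.64 and 0.76 CPM in E14 KO. In WT it had 9.30, 12.3, 8.43 and 4.33 CPM at P25, against 0.83, 0.85, 0.17 and 0.70 CPM at E14. Its log2 fold changes were nearly the same, 3.76 ± 0.39 in KO (adjusted p = 8.02e-08) and 3.73 ± 0.39 in WT (adjusted p = 8.04e-08).

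Osmr (chromosome 15, 6813577 to 6874969, minus strand), the chain shared with the oncostatin M receptor, had 14.1, 14.3, 11.4 and 16.9 CPM in P25 KO, against 0.25, 0.37, 0.82 and 0.57 CPM in E14 KO. In WT it had 14.9, 12.1, 12.7 and 8.73 CPM at P25, against 0.05, 0, 0.63 and 0.26 CPM at E14. The rise was 4.80 ± 0.45 on the log2 scale in KO (adjusted p = 2.02e-08) and 5.68 ± 0.49 in WT (adjusted p = 6.53e-09). Of its 18 counts in E14 WT, 11 came from replicate 3, and without that library the WT value was 6.73. Osmr is also made by fibroblasts and vessel cells.

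Hrh1 (chromosome 6, 114397936 to 114483296, plus strand), the receptor through which histamine causes itch in many settings, had 2.51, 1.77, 1.96 and 2.06 CPM in P25 KO, against 0.38, 0.09, 0.17 and 0.38 CPM in E14 KO. In WT it had 2.17, 3.16, 3.48 and 3.67 CPM at P25, against 0.14, 0.12, 0.11 and 0.18 CPM at E14. The rise was the smallest of the 10 in KO, 3.01 ± 0.39 on the log2 scale (adjusted p = 1.92e-06), and was 4.43 ± 0.42 in WT (adjusted p = 2.55e-08).

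Cysltr2 (chromosome 14, 73025603 to 73049114, minus strand), a receptor for cysteinyl leukotrienes, had 3.17, 3.19, 2.05 and 3.41 CPM in P25 KO and 2.66, 2.32, 2.22 and 2.36 CPM in P25 WT ganglia. It had no count in E14 KO and 2 counts in E14 WT. Its level was at least 74.9-fold higher at P25 in KO (adjusted p = 1.1e-08), and in WT the ratio was 93.7, with 25.7 to 778 as its counting interval (adjusted p = 4.47e-08).

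Lpar3 (chromosome 3, 146220963 to 146286186, plus strand), a receptor for lysophosphatidic acid that is rich in Mrgprd neurons, was the only one of the 10 with at least 0.5 CPM in every E14 library. It had 27.2, 32.3, 27.2 and 31.9 CPM in P25 KO, against 1.39, 1.45, 1.63 and 1.10 CPM in E14 KO. In WT it had 28.6, 42.2, 32.01 and 37.9 CPM at P25, against 1.51, 0.91, 1.54 and 0.66 CPM at E14. Its log2 fold change was 4.41 ± 0.25 in KO (adjusted p = 1.46e-11) and 4.93 ± 0.26 in WT (adjusted p = 4.23e-12).

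**Figure D2:**
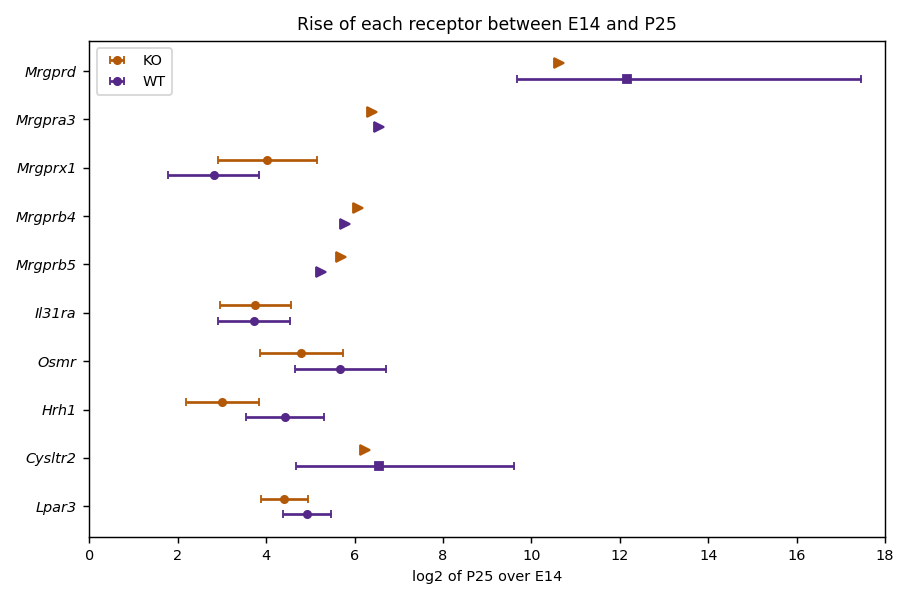
Change of each receptor at P25 over E14 on the log2 scale, KO above WT for each gene. Circles are fitted values with 95% intervals, triangles are lower bounds for groups with no count at E14, and squares are count ratios with 95% counting intervals for groups with 1 or 2 counts. The lowest value is 2.81, for Mrgprx1 in WT, and the mark of Mrgprd is furthest right in both genotypes, with a bound of 10.62 in KO. Bounds depend on the P25 counts and cannot rank the rises.

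Levels of different genes were compared per kilobase of the longest annotated transcript, in CPM per kb. In P25 KO ganglia Mrgprd led with 19.8 ± 1.67, followed by Lpar3 with 12.03 ± 1.16 and Mrgprx1 with 3.99 ± 0.75 (SD, n = 4). None of these 3 overlapped with the gene next to it in the order, though Mrgprx1 overlapped with Mrgprb4. Osmr (2.58 ± 0.41), Mrgpra3 (2.57 ± 0.37), Il31ra (2.37 ± 0.51), Mrgprb4 (2.19 ± 1.14), Mrgprb5 (1.96 ± 0.40) and Cysltr2 (1.68 ± 0.35) formed a run in which each gene overlapped with the next. Hrh1 was lowest, at 0.55 ± 0.08, below all values of Cysltr2.

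In P25 WT ganglia the order had the same ends, with Mrgprd at 18.5 ± 5.21, Lpar3 at 14.3 ± 2.46 and Hrh1 at 0.83 ± 0.18 CPM per kb. There Mrgprd and Lpar3 overlapped, and so did Mrgprx1 (3.14 ± 1.08) and Mrgpra3 (2.79 ± 0.72). At E14, Lpar3 was first in both genotypes, at 0.56 ± 0.09 in KO and 0.47 ± 0.18 in WT, and Mrgprd was at or near 0. Mrgprx1 came next, at 0.23 ± 0.21 in KO and 0.44 ± 0.28 in WT, and overlapped with Lpar3 in both. The order in the middle depends on the length used: with the union of all annotated exons, Osmr fell to 1.17 ± 0.19 in P25 KO and 1.00 ± 0.21 in P25 WT, behind Mrgprb5 and Il31ra in both.

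No receptor was called between KO and WT at either age. At P25, 0 of the 10 were called by edgeR's quasi-likelihood test, 0 had an unadjusted p under 0.05, DESeq2 called 0, and 0 had groups that did not overlap. Over all tested genes, 0.0463% were called, 1.87% had an unadjusted p under 0.05 and 3.32% did not overlap. At E14, 0 of the 7 receptors with any count were called, 0 had an unadjusted p under 0.05, DESeq2 called 0 and 0 did not overlap, where 0.0199% of all genes were called, 4.86% had an unadjusted p under 0.05 and 1.63% did not overlap.

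The P25 intervals show how much of a difference these libraries could have hidden. Mrgprd averaged 62.2 ± 5.26 CPM in KO and 58.1 ± 16.4 CPM in WT, a fold of 1.07 with a 95% interval of 0.78 to 1.47. Lpar3, the other highly counted receptor, averaged 29.6 ± 2.86 CPM in KO and 35.2 ± 6.06 CPM in WT, a fold of 0.84 (0.62 to 1.14). The interval was widest for Mrgprb4, with 2.67 ± 1.39 CPM in KO and 2.11 ± 0.85 CPM in WT and a fold of 1.27 (0.65 to 2.47).

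Hrh1 had the lowest unadjusted p of the 10 at P25. It averaged 2.08 ± 0.32 CPM in KO and 3.12 ± 0.67 CPM in WT, a log2 fold change of -0.59 with a 95% interval of -1.24 to 0.07 (adjusted p = 1 in edgeR's quasi-likelihood test). KO replicate 1 was above WT replicate 1, and the other KO libraries were below all WT libraries. The remaining log2 fold changes ran from -0.25 for Lpar3 to 0.48 for Mrgprb5, and 7 of the 10 were above 0.

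**Figure D3:**
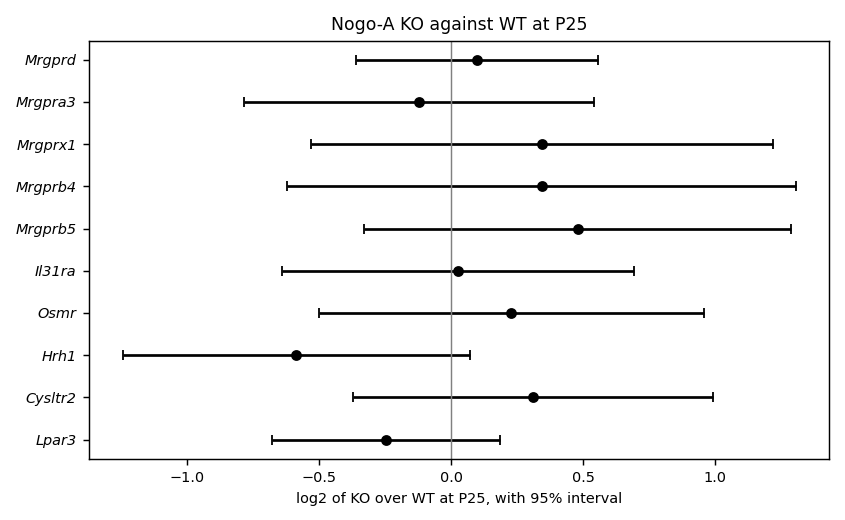
Log2 fold change of each receptor in KO over WT ganglia at P25, with its 95% interval from the fit to all libraries. All 10 intervals include 0, and Hrh1, at -0.59, lies furthest from it.

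At E14 the KO and WT libraries of the most counted receptors overlapped. Lpar3 averaged 1.39 ± 0.22 CPM in KO and 1.16 ± 0.44 CPM in WT, and Il31ra 0.65 ± 0.16 CPM in KO and 0.64 ± 0.32 CPM in WT. Osmr averaged 0.50 ± 0.25 CPM in KO and 0.23 ± 0.29 CPM in WT (log2 fold change 1.11, interval -0.11 to 2.33, adjusted p = 0.942 in edgeR's test), and without E14 WT replicate 3 the value was 2.13. Mrgpra3, Mrgprb4 and Mrgprb5 had no count in either group, so a difference was not detectable at this depth, where 0 counts over the group allow up to 0.0398 CPM in KO and 0.0382 CPM in WT. Mrgprd had 0 counts in KO and 1 in WT, and Cysltr2 0 in KO and 2 in WT (adjusted p = 0.942 for both).

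The stage change was tested against genotype with an interaction term, on the 7 receptors with counts at E14. None was called (0 of 15109 genes, or 0%, were called by edgeR, 647 or 4.28% had an unadjusted p under 0.05, and DESeq2 called 8, none of them among the receptors). Hrh1 was the 1 receptor with an unadjusted p under 0.05. Its log2 fold change in KO minus that in WT was -1.43, with an interval of -2.69 to -0.16 (adjusted p = 0.993 in edgeR's test). The E14 part of that difference rests on 19 counts in KO and 11 in WT.

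The chromosome 7 cluster was counted unevenly along its length at P25. Beside the 10 receptors, 15 further genes of the family were listed, of which 5 passed the filter. In KO, 4 of these 5 were called higher at P25 and 0 lower, and in WT 4 higher and 1 lower, where 30.6% of all tested genes were higher and 29.2% lower in KO, and 29.7% higher and 29.8% lower in WT. The 4 called higher passed the filter through their P25 counts, so nothing is read from this count. Mrgpra2b had 1.84 ± 0.76 CPM in P25 KO and 1.78 ± 0.26 CPM in P25 WT ganglia and no count at E14, a level at least 46.8-fold higher in KO and 46.6-fold higher in WT. Of its 31-base words, 87.04% occur in another gene, and 1113 of the 1296 occur in Mrgpra2a, so the split of reads between that pair is uncertain. Mrgprf, the neighbour of Mrgprd, also rose, with 5.95 ± 2.30 CPM in P25 KO against 0.12 ± 0.18 CPM in E14 KO, and 5.87 ± 0.82 CPM in P25 WT against 0.23 ± 0.19 CPM in E14 WT. Its log2 fold change was 5.71 ± 0.64 (SE; adjusted p = 2.61e-07 in edgeR's test) in KO and 4.65 ± 0.57 (adjusted p = 8.84e-07) in WT. Without E14 KO replicate 1 the KO value was 7.25, and without E14 WT replicate 1 the WT value was 5.37.

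Mrgpre did not rise. It had 19.8 ± 3.30 CPM in P25 KO against 24.1 ± 3.08 CPM in E14 KO (log2 fold change -0.29, adjusted p = 0.232), and 16.9 ± 3.13 CPM in P25 WT against 27.1 ± 7.33 CPM in E14 WT (-0.68, adjusted p = 0.00743 in edgeR's test). Of the cluster genes, Mrgpra6, Mrgprb3 and Mrgprb8 had no count in any of the 16 libraries, as did Mrgprg outside the cluster. Mrgprb2, the receptor of mast cells, had 3 counts in P25 KO and 1 count in P25 WT.

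**Figure D4:**
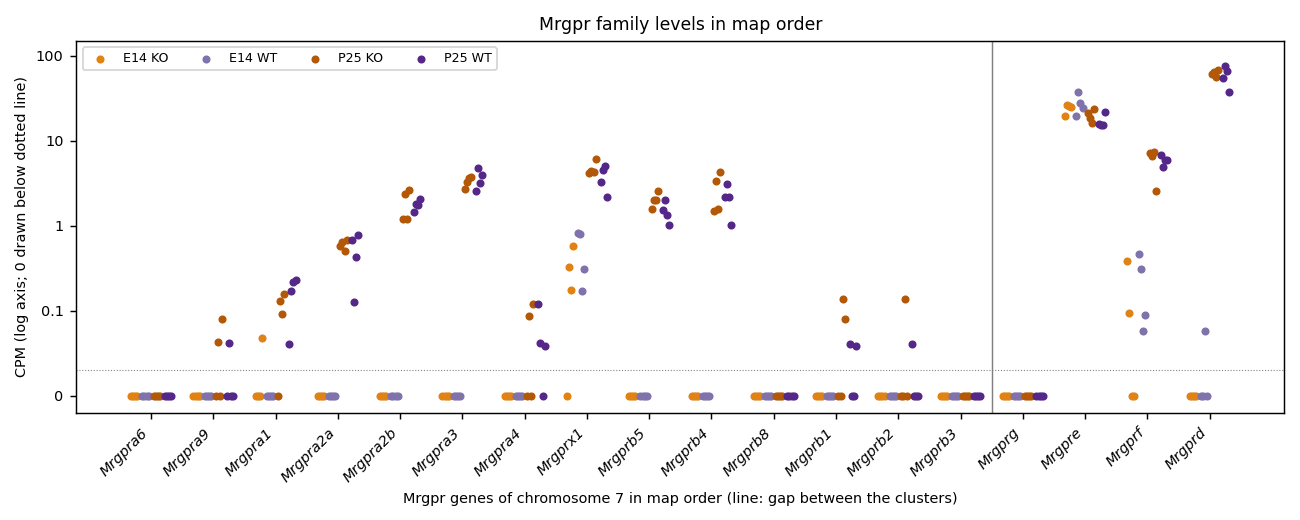
Level in CPM (log axis, with values of 0 drawn below the dotted line) of the 18 Mrgpr genes of chromosome 7 in map order, with 4 points per group for E14 KO, E14 WT, P25 KO and P25 WT. The P25 points of Mrgpra2a, Mrgpra2b, Mrgpra3, Mrgprx1, Mrgprb5, Mrgprb4, Mrgprf and Mrgprd stand above their E14 points, and those of Mrgpre do not.

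The P25 libraries of a group differed from each other, and not in the receptors alone. Against the other 3 P25 WT libraries, the chi-square of the counts of WT replicate 4 was 84.22 to 131.6 per degree of freedom. Among those 3 it was 19.37 to 34.73. WT replicate 4 was the lowest WT library for 6 of the 10, and KO replicate 4 the highest KO library for 8 of the 10. The like shares over all tested genes were not counted, so nothing is read from 6 and 8. Against the mean of the other 3 WT libraries, WT replicate 4 had 0.569 of their Mrgprd level, 0.432 of Il31ra, 0.405 of Mrgprb4 and 0.512 of Mrgprx1. It had 1.14 of their Mrgpra3, 1.11 of Lpar3 and 1.25 of Hrh1, so the low levels did not extend to all receptors.

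In the same library the cold channel Trpm8 stood at 0.367 and the sodium channel Scn10a at 0.539 of the other 3 WT libraries. Most of the neuropeptides compared were high, with Nmb at 2.34, Calca at 1.81, Nppb at 1.58 and Tac1 at 1.52, but Sst stood at 1.11. The trend of gene level with transcript GC content and length took up 43.4% of the variance of P25 WT replicate 4 among the P25 libraries, against 1.6% to 19.5% in the other 7, and its part in these values was not tested. KO replicate 4 had 2.04 of the Mrgprb4 level of the other 3 KO libraries, 1.41 of Mrgprx1 and 1.39 of Mrgprb5. Without WT replicate 4, the log2 fold change of KO over WT turned to -0.07 for Mrgprd and to -0.20 for Il31ra, and neither was called with or without it.

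**Figure D5:**
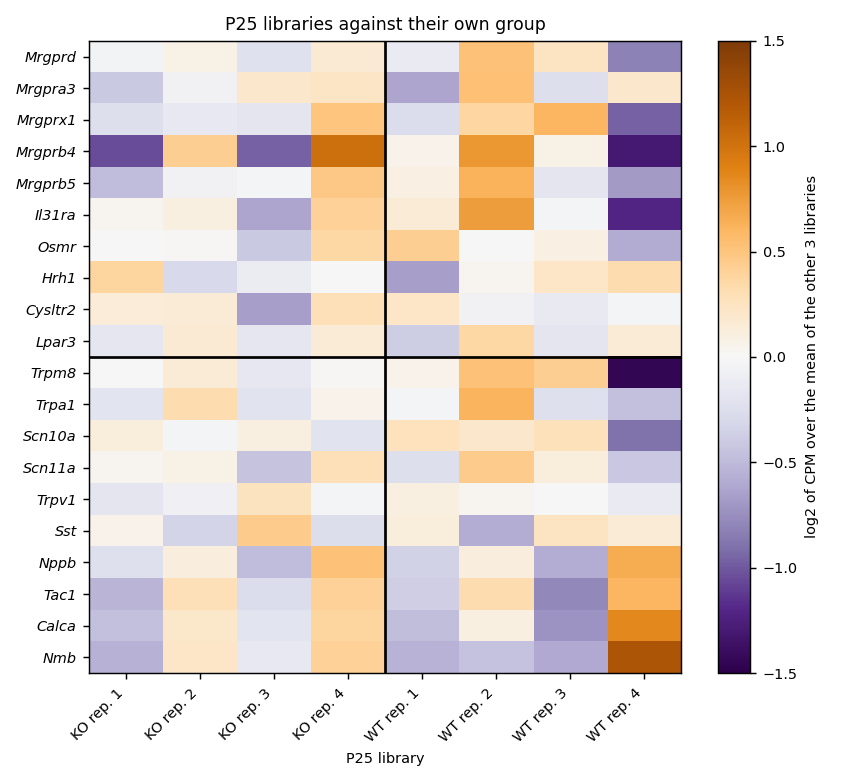
Log2 ratio of the CPM of each P25 library over the mean of the other 3 libraries of its group, for the 10 receptors (above the line) and 10 other sensory neuron genes (below it), with the KO libraries left of the WT libraries. WT replicate 4 is low for Mrgprd, Mrgprx1, Mrgprb4, Il31ra, Trpm8 and Scn10a and high for Nppb, Tac1, Calca and Nmb. The neuropeptide Sst lies near its group there (ratio 1.11).

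Other receptors and ligands of itch were listed apart from the 10. Of 22 tested receptors, 14 were called higher and 3 lower at P25 in KO, and 12 higher and 3 lower in WT, with median log2 fold changes of 1.08 in KO and 0.95 in WT, against 0.01 and 0.00 over all tested genes. Over all tested genes, 30.6% were called higher and 29.2% lower in KO, and 29.7% higher and 29.8% lower in WT, and the counts of the lists that follow are set against these same shares. Listed genes without a count at E14 passed the filter through P25 and could only be found higher. The lysophosphatidic acid receptors moved in both directions. Lpar5 rose as Lpar3 did, with 8.97 ± 1.13 CPM in P25 KO against 0.23 ± 0.21 CPM in E14 KO, and 9.34 ± 1.40 CPM in P25 WT against 0.26 ± 0.16 CPM in E14 WT (log2 fold changes 5.28 and 5.16, adjusted p = 5.14e-09 and 5.28e-09). Without E14 KO replicate 3 the KO value of Lpar5 was 5.86. Lpar2 fell, with 0.40 ± 0.14 CPM in P25 KO against 17.0 ± 1.23 CPM in E14 KO, and 0.33 ± 0.14 CPM in P25 WT against 19.8 ± 7.63 CPM in E14 WT (log2 fold changes -5.41 and -5.88, adjusted p = 6.39e-11 and 2.5e-11). Enpp2, the enzyme that makes the lipid, had log2 fold changes of 0.88 in KO (adjusted p = 0.0129) and 0.83 in WT (adjusted p = 0.0186).

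Of the other histamine receptors, Hrh2 rose with Hrh1, at 2.54 ± 0.45 CPM in P25 KO against 0.33 ± 0.42 CPM in E14 KO and 3.26 ± 0.78 CPM in P25 WT against 0.26 ± 0.18 CPM in E14 WT (log2 fold changes 2.99 and 3.68, adjusted p = 0.000195 and 2.64e-05 in edgeR's test). Without E14 KO replicate 1 the KO value of Hrh2 was 4.20. Hrh4 had 1 count over all 16 libraries. The serotonin receptor Htr1f, a marker of the Nppb neurons, had no count at E14 and a level at least 36.4-fold higher at P25 in KO and 37.9-fold higher in WT. F2rl1, the protease receptor, likewise had no count at E14, with bounds of 29.8-fold in KO and 26.6-fold in WT.

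The partner chain Il6st, which pairs with Osmr for oncostatin M, was high at both ages, at 362 ± 42.8 CPM in P25 KO against 217 ± 31.5 CPM in E14 KO, and 357 ± 103 CPM in P25 WT against 230 ± 43.8 CPM in E14 WT. Its rise was small beside those of Il31ra and Osmr, 0.74 on the log2 scale in KO (adjusted p = 0.00432) and 0.63 in WT (adjusted p = 0.0118). The ligands were almost uncounted: Il31 had 3 counts in P25 KO and none elsewhere, and Osm had 23 counts in P25 KO, 7 in P25 WT and none at E14. Of the 9 tested genes for itch ligands and the enzymes that make them, 5 were called higher and 1 lower in KO, and 4 higher and 2 lower in WT. One of the lower calls in WT was Edn1 (log2 fold change -2.02, adjusted p = 0.0179), which was lost with the replicate block (adjusted p = 0.0713), without E14 WT replicate 1 (adjusted p = 0.0835) and without P25 WT replicate 3 (adjusted p = 0.0602). Edn1 was not called in KO (-1.45, adjusted p = 0.0975), but was with same-numbered ganglia summed (adjusted p = 0.0418) and without E14 KO replicate 1 (adjusted p = 0.0201). Il33, an alarm cytokine of barrier tissues, was at 7.94 ± 1.30 CPM in P25 KO against 0.37 ± 0.19 CPM in E14 KO, and at 8.49 ± 1.22 CPM in P25 WT against 0.61 ± 0.52 CPM in E14 WT, a log2 fold change of 4.40 in KO and 3.73 in WT. The WT value of Il33 was 4.44 without E14 WT replicate 4.

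Of 18 genes that carry the receptor signal, 10 were called higher and 0 lower in KO, and 9 higher and 1 lower in WT. The channels opened downstream of itch receptors differed. Trpa1, used by Mrgpra3 and Mrgprx1 signalling, had log2 fold changes of 6.77 ± 0.44 in KO and 7.06 ± 0.45 in WT (adjusted p = 8.7e-11 and 7.65e-11). The KO value was 7.52 without E14 KO replicate 2, and the WT value 7.76 without E14 WT replicate 4. Trpv1, used by histamine signalling, had 102 ± 9.91 CPM in P25 KO against 98.9 ± 12.9 CPM in E14 KO and 105 ± 5.08 CPM in P25 WT against 96.4 ± 25.4 CPM in E14 WT, and was not called (adjusted p = 0.858 in KO and 0.53 in WT). Without E14 WT replicate 2 it was called higher in WT (log2 fold change 0.33, adjusted p = 0.0387). The kinase Jak1, which acts below Il31ra and Osmr, was not called either (adjusted p = 0.895 in KO and 0.409 in WT). Plcb3, the phospholipase below several Mrgpr receptors, rose by 1.22 ± 0.20 in KO and 1.09 ± 0.20 in WT on the log2 scale (adjusted p = 2.69e-05 and 8.49e-05).

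Of 11 listed transcription factors that specify these neurons, 1 was called higher and 6 lower at P25 in KO, and 0 higher and 6 lower in WT, with median log2 fold changes of -0.55 in KO and -0.59 in WT. Of all tested genes, 29.2% in KO and 29.8% in WT were called lower. Runx1 had 54.4 ± 6.89 CPM in P25 KO against 82.8 ± 23.5 CPM in E14 KO, and 45.5 ± 9.58 CPM in P25 WT against 78.1 ± 26.7 CPM in E14 WT (log2 fold changes -0.61 and -0.78, adjusted p = 0.0297 and 0.00695). The KO call was lost without E14 KO replicate 2 (-0.39, adjusted p = 0.161) and without P25 KO replicate 2, 3 or 4 (adjusted p = 0.061, 0.0887 and 0.0612), and the WT call without E14 WT replicate 3 (-0.45, adjusted p = 0.0761). Tlx3, with log2 fold changes of -0.55 in KO and -0.59 in WT (adjusted p = 0.037 and 0.0254 in edgeR's test), lost its call in 10 of 24 alternatives in KO, where the adjusted p reached 0.0787, and in 8 of 24 in WT, where it reached 0.128. Cbfb, the partner of the RUNX factors, fell by 0.98 in KO and by 0.63 in WT (adjusted p = 0.000711 and 0.0182), and its WT call was lost in 5 of 24 alternatives, at an adjusted p of up to 0.0921. Isl1, a homeodomain factor of sensory neurons, fell by 1.55 on the log2 scale in KO and by 1.57 in WT (adjusted p = 6.42e-06 and 5.43e-06).

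Nonpeptidergic neurons are the class that carries Mrgprd and Lpar3. Of 14 tested markers, 9 were called higher and 2 lower in KO, and 10 higher and 2 lower in WT. Otoa had 6.09 ± 0.42 CPM in P25 KO against 0.32 ± 0.20 CPM in E14 KO, and 6.09 ± 1.13 CPM in P25 WT against 0.38 ± 0.18 CPM in E14 WT. The ATP-gated channel P2rx3 fell, with 127 ± 7.03 CPM in P25 KO against 509 ± 40.1 CPM in E14 KO, and 124 ± 22.3 CPM in P25 WT against 514 ± 12.5 CPM in E14 WT (adjusted p = 8.28e-10 in KO and 5.54e-10 in WT in edgeR's test). The GDNF family coreceptor Gfra2 stood at 147 ± 22.9 CPM in P25 KO against 128 ± 30.9 CPM in E14 KO, and 149 ± 18.1 CPM in P25 WT against 137 ± 26.4 CPM in E14 WT, and was not called.

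Of the 7 neuropeptides of itch neurons, 6 were called higher and 1 lower at P25 in both genotypes. Nppb, the peptide of the Il31ra class, had 3.26 ± 0.74 CPM in P25 KO against 1.21 ± 0.29 CPM in E14 KO, and 4.17 ± 1.20 CPM in P25 WT against 0.75 ± 0.43 CPM in E14 WT (adjusted p = 0.00213 in KO and 1.4e-05 in WT in edgeR's test). Sst, made by the same class, had 9.78 ± 1.85 CPM in P25 KO against 1.496 ± 0.79 CPM in E14 KO, and 14.5 ± 2.67 CPM in P25 WT against 1.66 ± 0.47 CPM in E14 WT. Grp was the one that fell, with log2 fold changes of -2.78 in KO and -3.17 in WT (adjusted p = 0.00231 and 0.00164) and -3.67 in KO without P25 KO replicate 3, and it had under 1 CPM on average in all 4 groups. No gene of these lists was called between KO and WT at either age or in the interaction.

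Other cell types of the ganglion changed with age as well. The summed level of 13 pan-neuronal genes ranged from 17382 to 19094 CPM in P25 KO against 17498 to 20117 CPM in E14 KO, and from 16700 to 21853 CPM in P25 WT against 16255 to 19608 CPM in E14 WT, so the ranges of both ages overlapped. The shares of all tested genes were, as above, 30.6% higher and 29.2% lower in KO, and 29.7% higher and 29.8% lower in WT. The 8 Schwann cell genes, of which 7 were called higher in both genotypes, summed to 21815 to 44222 CPM in P25 KO against 750 to 982 CPM in E14 KO, and to 28127 to 33394 CPM in P25 WT against 753 to 1226 CPM in E14 WT. Of the 8 macrophage genes, 8 were called higher in KO and 7 in WT, and their sum ranged from 192 to 278 CPM in P25 KO against 50.8 to 67.5 CPM in E14 KO, and from 233 to 253 CPM in P25 WT against 61.0 to 110 CPM in E14 WT. The 6 fibroblast genes, of which 5 were called higher in KO and 3 in WT, summed to 1696 to 2093 CPM in P25 KO against 774 to 1172 CPM in E14 KO, and to 1699 to 2076 CPM in P25 WT against 993 to 1440 CPM in E14 WT. P25 KO replicate 4 had the highest pan-neuronal sum of its group and the lowest Schwann cell, macrophage and fibroblast sums. It was also highest for the satellite glia genes, at 1423 CPM. The part of these differences in its receptor levels was not tested.

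Of 6 tested mast cell genes, 5 were called higher and 1, Kit, lower in both genotypes. Of the 8 genes listed, 6 had no count in E14 KO and 3 had none in E14 WT. Genes without counts at E14 passed the filter through P25, so nothing is read from the count of 5. Tpsb2 had 3.69 ± 1.33 CPM in P25 KO and 2.98 ± 1.29 CPM in P25 WT ganglia and no count at E14, and Fcer1a, a defining gene, had 2 counts over all libraries. The list summed to 52.8 to 69.7 CPM in P25 KO against 102 to 134 CPM in E14 KO, and to 47.5 to 80.0 CPM in P25 WT against 90.2 to 122 CPM in E14 WT, nearly all of it from Kit, which other cells make as well. Of the satellite glia genes, 5 of 8 were called higher and 2 lower in both genotypes, and of the 7 endothelial genes 2 were called higher and 4 lower in KO, and 1 higher and 5 lower in WT. Of 5 mural genes 2 were called higher and 1 lower in both, and of 3 tested keratinocyte genes 0 were higher and 2 lower in KO, and 1 higher and 2 lower in WT. Hrh1, Cysltr2 and Osmr are also made outside neurons, and the part of these cell types in the rise of the receptors was not tested.

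Genes whose pattern over the 16 libraries was most like each receptor were ranked among 13122 candidates. The measure was the root mean square difference in log2(CPM + 0.5) after each gene's own mean was subtracted, so that 0 is identical. For Mrgprd the nearest were C4b (0.317), Pcp4l1 (0.366) and Calb2 (0.373), and for Lpar3 Tmem100 (0.226), Baiap2l1 (0.243) and Kcns3 (0.261). Il31ra was nearest to Tecta (0.293), Ces2g (0.313) and Cacna1i (0.326), and Osmr to Art3 (0.287). For Mrgprx1 the nearest gene was Slc1a1 (0.292), for Hrh1 Lrrc49 (0.239) and for Mrgprb5 Tmem72 (0.196). Cysltr2 was nearest to Sowahb (0.155), and was itself the third nearest gene to Mrgprb4 (0.337). The immunoglobulin gene Ighg2c was second for Mrgpra3 (0.19), after Ces2g (0.187). All 16 libraries enter each distance, so the change between the ages weighs in it. The added 0.5 CPM shrinks that change for receptors at low levels, so a near gene need not share their fold change. Tmem72, nearest to Mrgprb5, averaged 51.0 CPM in P25 KO against 11.4 CPM in E14 KO. Mrgprb5 itself was at least 51.3-fold higher at P25 in KO.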

How the data were processed

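Each of the 16 libraries was made from the RNA of 1 ganglion with a stranded mRNA kit, per the labels' protocols. The authors deposited whole-number estimated counts for each gene. Tools listed in the submitters' processing notes, without role or order, are kallisto 0.46, fastp 0.20.0 and DESeq2 1.32.0, with the build GRCm39. Neither the strand setting nor the annotation of the counting is given in the sources used here. Symbols were found for 25614 of 25719 identifiers. Positions and lengths came from GENCODE for GRCm38 and upstream sequences from RefSeq for GRCm38.p6. Neither is the authors' assembly.

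The counts were tested with edgeR 4.0.16 in R 4.3.3. One model with 4 group means was fitted to all 16 libraries after filterByExpr and TMM scaling, and tested by quasi-likelihood F test. The p-values were adjusted by Benjamini and Hochberg's method over 15109 genes, and genes with adjusted p under 0.05 are called. Where no tool is named, an adjusted p is from edgeR. Standard errors (SE) were derived from the F statistic. A group with no counts was set to a floor of 3 counts over the whole group. Ratios with 1 to 3 counts have exact binomial 95% intervals. Floors and intervals cover counting error only. The tests were checked on simulated counts. The alternatives were DESeq2 1.42.0, other scalings and filters, same-numbered ganglia summed, a replicate block, a fit to the compared groups and leaving out each library. Exon-union length was added after seeing the data. The 10 receptors and the 16 other lists were chosen with earlier results of these data known. The genes chosen from a list were up to 6 called genes with the largest change in WT, and a few preset ones. Not all of them are described one by one, so those described are not always the largest changes. Penk (log2 fold change at P25 over E14 -4.39 in KO and -4.18 in WT) and Bnc2 (-2.63 and -2.66) are among those passed over. A few further genes were named after their values were seen. Likeness names the 3 nearest genes. Figures were drawn with matplotlib 3.10.9. 1 listed gene is not reported here.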

Additional observations from a re-analysis of the deposited data

Results flagged for a closer look

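In 2 of 32 receptor and group sets of 4 libraries, 1 library lay far from the others, and chance gives about 1 in 20 for continuous, normally distributed values. Mrgprx1 stood at 6.03 CPM in P25 KO replicate 4, against 4.16 to 4.35 CPM in the other 3 P25 KO libraries. Mrgprd stood at 0.0569 CPM in E14 WT replicate 3, which is 1 count, against 0 in the other 3 E14 WT libraries. A set with 1 count in 1 library and 0 in the other 3 is always flagged, so nothing is read from it.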

How the results depend on the processing

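In every alternative run, all 10 receptors were called higher at P25 in both genotypes and none was called between KO and WT or in the interaction. All 480 stage values of the receptors under an alternative kept their direction and their call. The counts over all genes moved more. Between KO and WT at E14, 3 genes were called, against 5 with DESeq2 and 1 to 5 with a library left out. At P25, 7 were called, against 17 with DESeq2, 2 with a replicate block, 11 with same-numbered ganglia summed, 3 with the compared groups only and 3 to 14 with a library left out. In the interaction, 0 were called, against 8 with DESeq2 and 0 to 7 with a library left out. Same-numbered libraries had correlations of their deviations from the group means from -0.471 to 0.271, so the numbers were not taken to pair the samples.

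The near-zero value of Il31ra in KO over WT at E14 (log2 fold change -0.0040) turned to 0.0039 with DESeq2, 0.0029 with RLE scaling, 0.0038 with unscaled library totals, 0.0263 without a low-count filter, 0.0280 with a stricter one, 0.0751 with the replicate block, 0.0552 with ganglia summed and 0.0175 with the compared groups only, and ran from -0.26 to 0.21 with a library left out. Its interaction (0.03) turned to -0.0246 with the replicate block and -0.0302 with ganglia summed, and ran from -0.19 to 0.29 with a library left out. The KO over WT value of Mrgprd at E14 ran from -2.02 to 0 with a library left out. The 0 came without E14 WT replicate 3, which held its only count at E14, so it is not a change of direction. Leaving out a library also turned the KO over WT value at P25 of Mrgprd (-0.0659 to 0.248), Mrgpra3 (-0.254 to 0.0315) and Il31ra (-0.20 to 0.25). For P25 over E14 it turned Trpv1 in KO (-0.0281 to 0.151) and Jak1 in KO (-0.0877 to 0.241) and WT (-0.0027 to 0.48), and Jak1 in KO was -0.0278 with ganglia summed. None of these was called, and the cause was not tested. The call of Enpp2 in WT was lost with unscaled library totals (adjusted p = 0.0784) and the compared groups only (0.0661).

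With at most 48 counts per group in KO and 51 in WT at E14 for receptors other than Lpar3, the depth limits what E14 can show. Mrgprd, Mrgpra3, Mrgprb4, Mrgprb5 and Cysltr2 had 0 to 2 counts per group there.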
